A study of Mus musculus with 8 samples.

Results

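The genes described here are 7 that mark red blood cells: the alpha globin genes Hba-a1 and Hba-a2, the adult beta globin genes Hbb-b1, Hbb-b2 and Beta-s, and the erythroid haem and metabolite enzymes Alas2 and Bpgm. They were chosen by symbol, as 7 of the 23356 genes of a deposited expression table, and all 7 had a mean of at least 1 FPKM (fragments scaled to the length of the gene and the size of the library) over the 8 libraries, as did 12530 genes in all. The RNA came from whole sciatic nerves of mice at postnatal day 30, all F1 animals of C57BL/6 and FVB/N, and poly A selected libraries were read on a HiSeq2500. Each of 4 genotypes had 2 libraries. The first, HA-NRG1 type III/+:Q215X/+, carried both alleles and is named the double below. HA-NRG1 type III/+ carried a tagged neuregulin 1 transgene, of the type III form, whose promoter the labels do not name. Q215X/+ was heterozygous for the mutant allele Q215X and is a model of congenital hypomyelination. Wild type (WT) carried neither allele. The labels do not say whether the 2 libraries of a genotype are from different mice. Those of HA-NRG1 type III/+ differ in sex by their transcripts and so come from different mice, but for the other genotypes the spread behind each p-value may be technical.

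Adult haemoglobin joins alpha and beta globin chains, each with a haem group that binds oxygen. Alas2 encodes the erythroid form of the first enzyme of haem synthesis, and Bpgm makes bisphosphoglycerate, which lowers the oxygen affinity of haemoglobin. Red cells have no nucleus, and the youngest of them in the circulation, the reticulocytes, still carry these messenger RNAs, so in a tissue that makes no red cells the transcripts are commonly read as a sign of how much blood the sample held.

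The libraries of each genotype are called set 0 and set 1 after the endings of their column names, which no label ties to a replicate number. Total FPKM ran from 443730 to 530900 per library, and the read depth behind it is not known. Xist and the Y-linked gene Ddx3y marked both Q215X/+ libraries and set 0 of HA-NRG1 type III/+ as male and the other 5 libraries as female. Sex and genotype therefore cannot be told apart in Q215X/+ against WT or in the double against Q215X/+. The Q215X/+ library of set 1 also held skeletal muscle RNA, with a summed 1216 FPKM over 10 muscle genes, against 6.12 to 97.0 in the other libraries.

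The alpha globin rows are near copies of each other, which bears on every value below, so the stretch in which they differ is shown first. In the GENCODE annotation of GRCm38, Hba-a1 lies on chromosome 11 at 32283511 to 32284465 and Hba-a2 at 32296489 to 32297298, both on the plus strand. Their coding sequences of 426 bases were identical at 425 positions (99.8%), with 1 substitution, C381T from Hba-a1 to Hba-a2, counted from the first base of the start codon. The lines give coding bases 361 to 401 with the differing base in capitals.
Hba-a1: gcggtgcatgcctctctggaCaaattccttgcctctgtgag
Hba-a2: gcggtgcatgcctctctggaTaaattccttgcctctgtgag
The longest identical run was 380 bases, so a read that misses that base in the coding part fits both genes. The adult beta globin pair of the C57BL/6 haplotype is as close, with 440 of 441 coding bases identical (99.8%) and the substitution C417T from Hbb-bs to Hbb-bt, here in coding bases 397 to 437.
Hbb-bs: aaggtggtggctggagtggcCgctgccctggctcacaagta
Hbb-bt: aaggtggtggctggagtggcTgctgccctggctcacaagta
RefSeq lists Beta-s under the symbol Hbb-bs, and GENCODE places Hbb-bs on chromosome 7 at 103826534 to 103828096 on the minus strand in GRCm38. The files do not say how fragments were divided between Beta-s, Hbb-b1 and Hbb-b2, the last being the adult beta genes of another haplotype of laboratory mice. Sums over copies are therefore given beside the single rows.

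Haemoglobin genes and Alas2 are classical targets of the erythroid factors GATA1 and KLF1. Promoters are shown because both Q215X/+ libraries were above all others for 6 of the 7 genes, all but Hba-a2. RefSeq promoters (GRCm38.p6, 250 bases before to 50 after the start) matched 5 of the 7 genes. Capitals mark matches on either strand to 3 short motifs. They are GATAA as the core of the binding site of GATA factors, then CACCC as the box read by factors of the KLF family, and lastly TATAA as the core promoter element. The window of Hba-a1 is chr11:32283422-32283721 (plus strand), of Beta-s chr7:103827879-103828178 (minus strand), of Alas2 chrX:150547167-150547466 (plus strand) and of Bpgm chr6:34476106-34476405 (plus strand).
Hba-a1: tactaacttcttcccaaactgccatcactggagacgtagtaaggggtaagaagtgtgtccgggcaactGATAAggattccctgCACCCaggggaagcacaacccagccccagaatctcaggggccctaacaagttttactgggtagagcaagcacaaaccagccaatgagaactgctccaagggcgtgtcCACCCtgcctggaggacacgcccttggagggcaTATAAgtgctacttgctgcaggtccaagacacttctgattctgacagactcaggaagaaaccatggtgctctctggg
Beta-s: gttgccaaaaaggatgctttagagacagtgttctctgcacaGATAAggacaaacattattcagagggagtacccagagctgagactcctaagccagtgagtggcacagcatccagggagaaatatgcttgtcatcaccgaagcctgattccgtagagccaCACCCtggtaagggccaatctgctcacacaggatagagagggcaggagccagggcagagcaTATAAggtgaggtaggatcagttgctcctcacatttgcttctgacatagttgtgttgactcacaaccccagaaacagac
Alas2: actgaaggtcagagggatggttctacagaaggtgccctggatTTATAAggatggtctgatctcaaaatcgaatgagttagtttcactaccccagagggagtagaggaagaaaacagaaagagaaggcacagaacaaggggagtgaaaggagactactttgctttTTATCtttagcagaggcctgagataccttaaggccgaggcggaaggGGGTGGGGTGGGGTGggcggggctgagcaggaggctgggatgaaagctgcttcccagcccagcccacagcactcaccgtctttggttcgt
Bpgm: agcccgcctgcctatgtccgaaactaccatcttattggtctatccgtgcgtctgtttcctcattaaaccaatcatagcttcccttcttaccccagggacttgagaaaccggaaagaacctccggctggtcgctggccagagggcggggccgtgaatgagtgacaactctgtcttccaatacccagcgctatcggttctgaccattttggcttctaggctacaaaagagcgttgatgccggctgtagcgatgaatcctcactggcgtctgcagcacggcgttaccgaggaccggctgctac
Hba-a1 held 1 GATAA, 2 CACCC and 1 TATAA, and Beta-s held 1 of each. In Alas2 there were 1 GATAA, 3 CACCC and 2 TATAA, the last pair being matches on the 2 strands that overlap each other. That pair began at −208 and −207 from the start, far from where TATAA began in Hba-a1 (−27) and Beta-s (−29). No match of different motifs overlapped. The Hba-a2 window shared 297 of 300 bases with that of Hba-a1 (99%) and held the same counts. Bpgm held none of the 3. Of 32851 RefSeq promoters of the same length, 25.4% held GATAA, 57.5% CACCC, 24.9% TATAA and 3.63% all of them, so single matches are common and describe letters only.

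Among the alpha globins, Hba-a1 stood at 43.2 and 82.8 FPKM in sets 0 and 1 of the double, 22.8 and 3.09 in HA-NRG1 type III/+, 229 and 436 in Q215X/+, and 120 and 109 in WT. Both Q215X/+ libraries were above every other library and both HA-NRG1 type III/+ libraries below every other, and no 2 genotypes overlapped. Hba-a2 stood at 0.00483 and 0.00418 FPKM in the double, 6.99 and 16.9 in HA-NRG1 type III/+, 29.9 and 0.00341 in Q215X/+, and 9.99 and 14.0 in WT. Unlike Hba-a1, it was close to 0 in both double libraries and in 1 Q215X/+ library and followed no order of genotypes. Where Hba-a2 was close to 0, Hba-a1 held 100% of the alpha sum, in HA-NRG1 type III/+ it held 76.5% and 15.5%, and in the remaining libraries 88.4% to 92.3%. Summed over both rows, alpha globin came to 43.2 and 82.8 FPKM in the double, 29.8 and 19.99 in HA-NRG1 type III/+, 259 and 437 in Q215X/+, and 130 and 123 in WT. The sums again did not overlap between genotypes, and for HA-NRG1 type III/+ they differed by less between its 2 libraries than Hba-a1 alone did.

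Among the beta globins, Beta-s was the most abundant of the 7 genes in every library. It stood at 247 and 849 FPKM in the double, 254 and 242 in HA-NRG1 type III/+, 2469 and 4992 in Q215X/+ and 676 and 761 in WT. Both Q215X/+ libraries were far above the rest, while the double spanned both other genotypes, with set 0 beside HA-NRG1 type III/+ and set 1 above WT. By level, Beta-s ranked 225 and 53 among all genes of the 2 double libraries, 213 and 265 in HA-NRG1 type III/+, 6 and 7 in Q215X/+, and 48 and 75 in WT. The second beta row, Hbb-b1, had 24.2 and 84.6 FPKM in the double, 53.3 and 24.7 in HA-NRG1 type III/+, 259 and 734 in Q215X/+, and 90.3 and 108 in WT. For this row WT lay above both transgenic genotypes, which overlapped each other, and below Q215X/+. Hbb-b2 was a minor row, at 0.727 and 0.410 FPKM in the double, 0.00161 and 0.914 in HA-NRG1 type III/+, 4.50 and 8.55 in Q215X/+, and 0.501 and 0.978 in WT. It separated Q215X/+ from the rest, and the other 3 genotypes overlapped.

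The globin rows were dominated by beta chains. The beta sum came to 272 and 934 FPKM in the double, 307 and 268 in HA-NRG1 type III/+, 2733 and 5735 in Q215X/+, and 767 and 869 in WT. Beta-s made up 82.7% to 90.9% of the beta sum in every library, so its share hardly depended on genotype. The ratio of the beta to the alpha sum was 6.30 and 11.3 in the double, 10.3 and 13.4 in HA-NRG1 type III/+, 10.6 and 13.1 in Q215X/+, and 5.89 and 7.08 in WT. In every genotype it was higher in set 1 than in set 0, and FPKM was taken as length-scaled for this ratio. All 5 globin rows together took 0.0706% and 0.207% of all FPKM in the double, 0.0728% and 0.0542% in HA-NRG1 type III/+, 0.674% and 1.22% in Q215X/+, and 0.193% and 0.189% in WT. The 2 WT libraries were close to each other, whereas of the 2 double libraries set 0 was level with HA-NRG1 type III/+ and set 1 with WT.

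**Figure D1:**
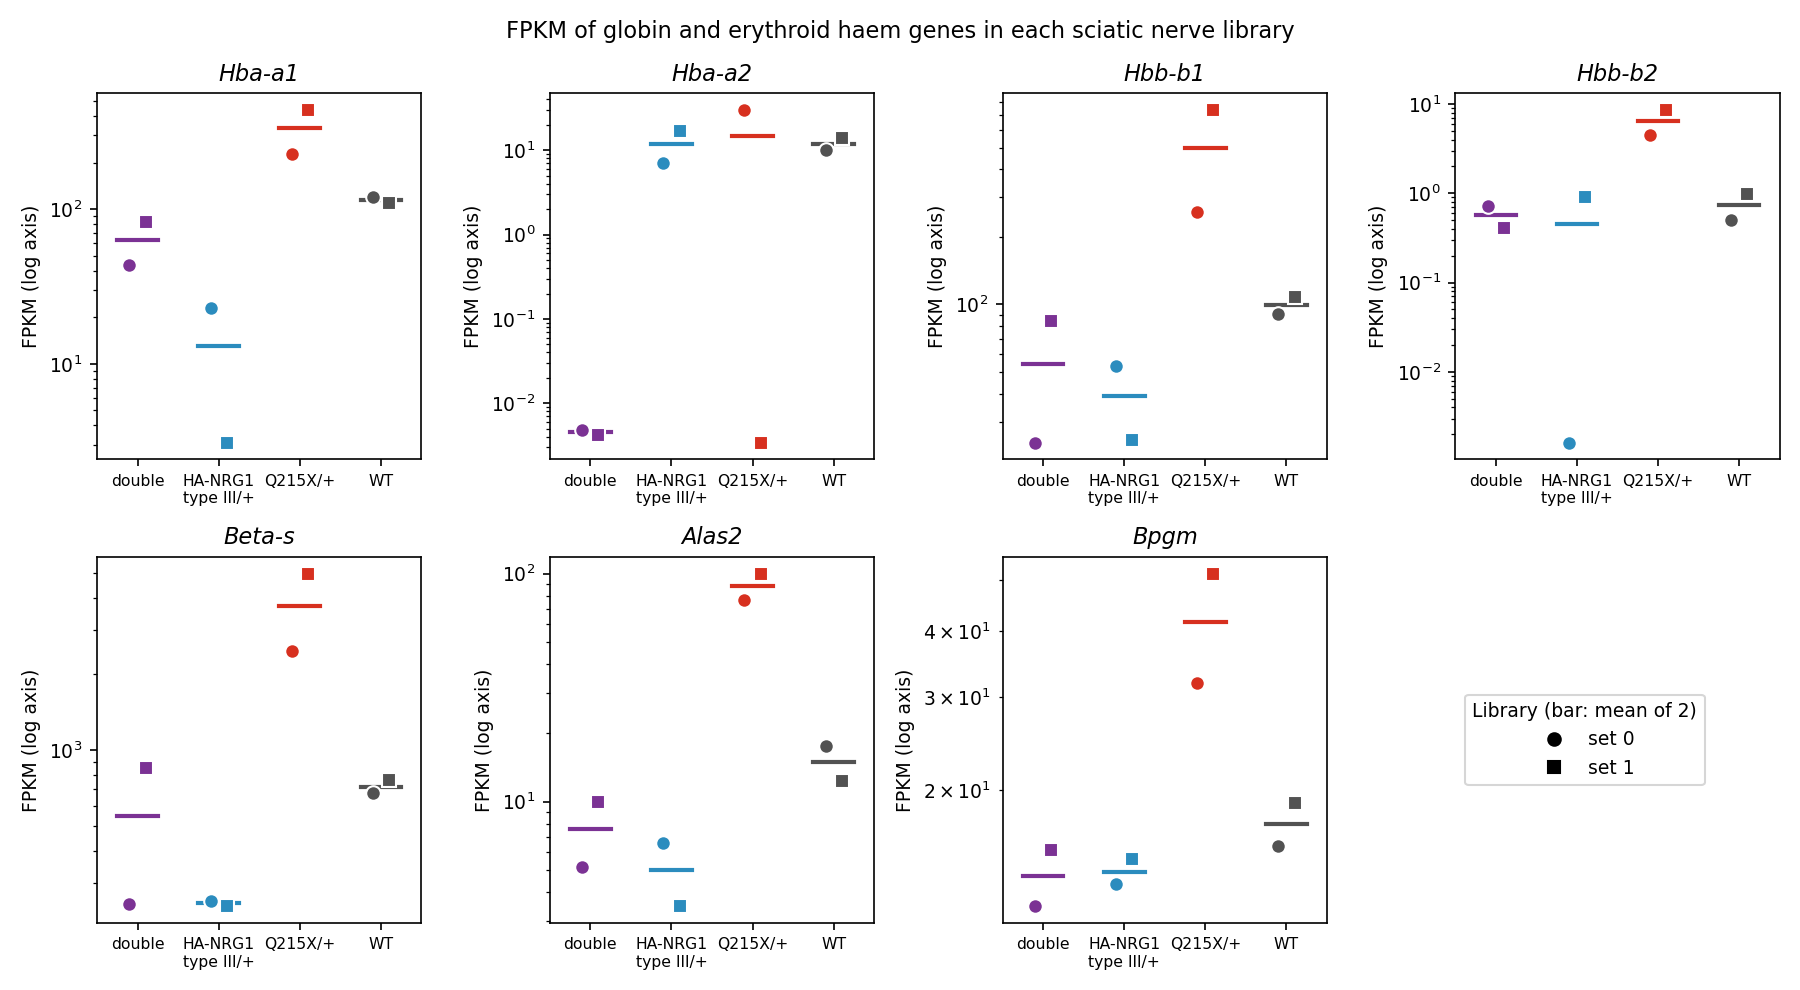
FPKM of the 7 genes in each sciatic nerve library, one panel per gene on a log axis, with circles for set 0, squares for set 1 and a bar at the mean of the 2 libraries of a genotype. In 6 panels both Q215X/+ libraries lie above all others, and in the Hba-a2 panel 3 libraries lie near 0.004 FPKM.

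**Figure D2:**
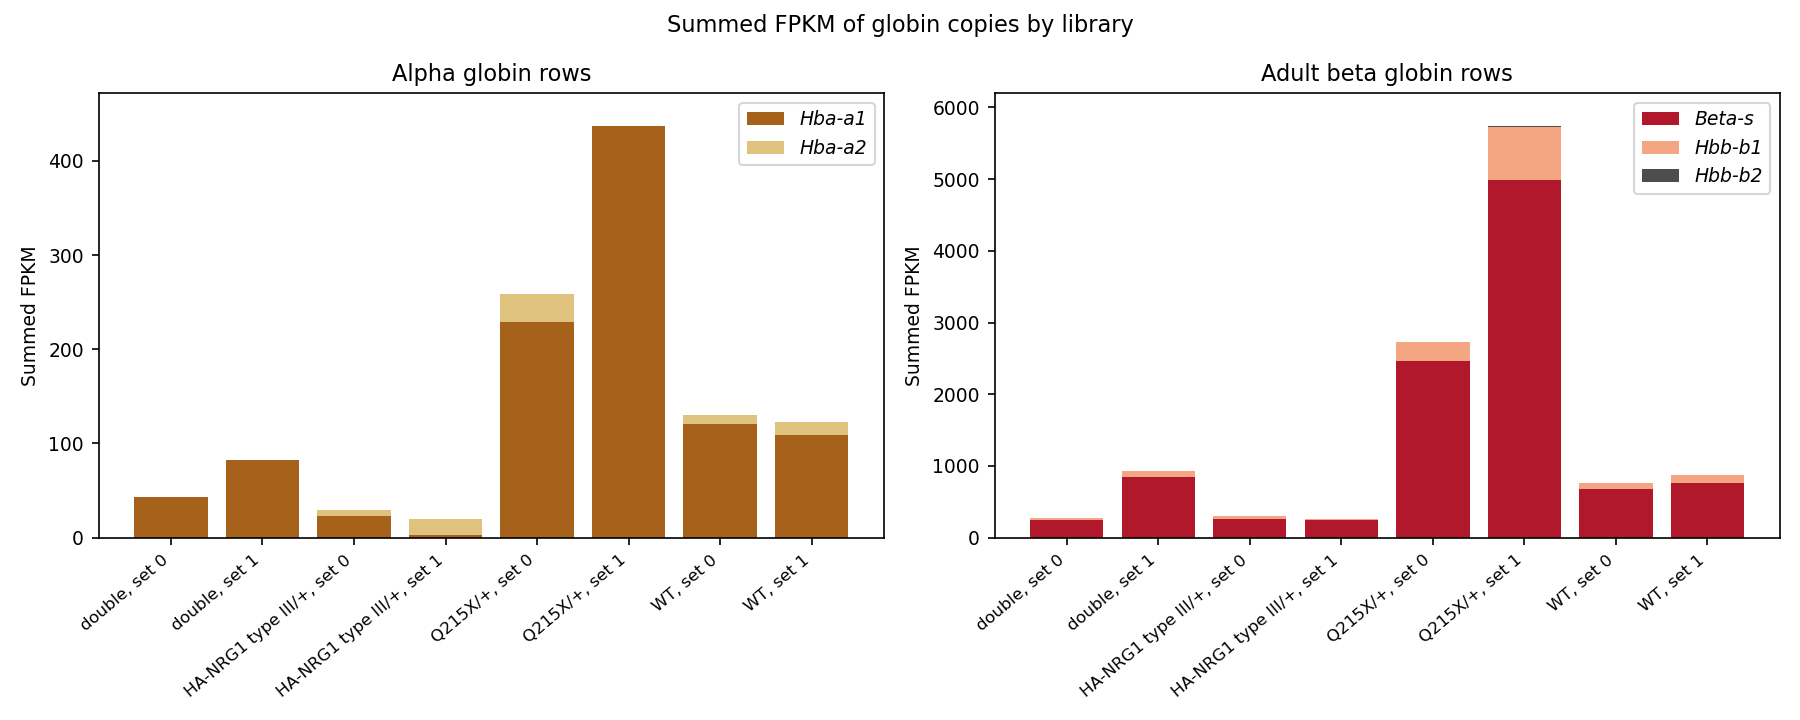
Summed FPKM of the alpha globin rows (left) and the adult beta globin rows (right) by library, stacked by row, on linear axes that start at 0. The Q215X/+ bars reach 437 FPKM for alpha and 5735 FPKM for beta, and Hba-a2 is visible in 5 of the 8 libraries.

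Of the enzymes, Alas2 stood at 5.19 and 9.96 FPKM in the double, 6.56 and 3.48 in HA-NRG1 type III/+, 76.8 and 99.9 in Q215X/+, and 17.6 and 12.4 in WT. Q215X/+ was above WT and WT above both transgenic genotypes without overlap, and the 2 transgenic genotypes overlapped. The ratio of summed globin to Alas2 was 60.7 and 102 in the double, 51.4 and 82.6 in HA-NRG1 type III/+, 38.9 and 61.8 in Q215X/+, and 51.1 and 80.3 in WT. It was higher in set 1 of every genotype, and within each set Q215X/+ had the lowest ratio and the double the highest. Bpgm stood at 12.1 and 15.4 FPKM in the double, 13.3 and 14.8 in HA-NRG1 type III/+, 31.96 and 51.5 in Q215X/+, and 15.7 and 18.9 in WT. As for Alas2, Q215X/+ was above WT and WT above both transgenic genotypes, which overlapped each other. Bpgm spanned 4.27-fold from the lowest to the highest library, against 28.7-fold for Alas2 and 20.6-fold for Beta-s.

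Q215X/+ against WT shows the mutation in nerve without the transgene. In Q215X/+, 6 of the 7 genes were above WT in both sets, and their groups did not overlap, against 8.78% of all 12530 genes higher without overlap. Alas2 averaged 88.4 ± 16.3 FPKM in Q215X/+ and 15.0 ± 3.67 FPKM in WT (SD, n = 2 each), and Beta-s 3730 ± 1784 FPKM in Q215X/+ and 718 ± 60.0 FPKM in WT. Within sets, Alas2 was 4.38-fold and 8.08-fold higher, Beta-s 3.65-fold and 6.56-fold, and Hbb-b1 2.87-fold and 6.82-fold. Hbb-b2 was 8.98-fold and 8.75-fold higher, Hba-a1 1.90-fold and 4.01-fold, and Bpgm 2.04-fold and 2.72-fold. For all 6 but Hbb-b2, the fold was larger in set 1, the library with muscle RNA. In bulk nerve, more red cells and more RNA per red cell cannot be told apart.

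None of these differences passed the test across all genes. On log2(FPKM + 1), limma gave Alas2 a difference of 2.49 (SE 0.36, Benjamini-Hochberg adjusted p = 0.695) and Beta-s one of 2.29 (SE 0.59, adjusted p = 1). The values were 2.13 (SE 0.72) for Hbb-b1, 2.07 (SE 0.38) for Hbb-b2, 1.46 (SE 0.80) for Hba-a1, 1.19 (SE 0.23) for Bpgm and −1.21 (SE 1.43) for Hba-a2. The median over the 7 was 2.07, against −0.0055 over all genes tested. limma called 0 of the 7 at an adjusted p under 0.05, where 0.00798% of all genes were called, and 5 of the 7 had an unadjusted p under 0.05, as did 2.04% of all genes. A fit that takes the set for a replicate block called 0 of the 7 as well. Q215X/+ libraries are male and WT libraries female, and with a term for sex Hba-a1 turned to −1.08, while Alas2 had 1.74 and Beta-s 2.22, with 0 called. Exact permutation over 2 and 2 libraries has a smallest two-sided p of 0.333 and was not used.

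Size gave another view of the same values, without a test. Of all 12530 genes, 19 (0.152%) were more than 2-fold higher in Q215X/+ than in WT in both sets, and 5 of these were Alas2, Beta-s, Hbb-b1, Hbb-b2 and Bpgm. The other 14 held 4 Y-linked genes, the neutrophil genes S100a8, S100a9 and Retnlg, and Car2 and Isg20, both listed here as reticulocyte genes. The last 5 were C7, Cox8b, Cyp2j13, Mir135a-1 and Mmrn1. These names were read off after their values were seen.

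HA-NRG1 type III/+ against WT shows the transgene without the mutation, and it shares its WT libraries with the comparison above. All 7 limma differences were below 0, with a median of −1.41 against −0.0077 over all genes. For 5 of the 7 the groups did not overlap, with the transgenic libraries lower, against 15.7% of all genes. Beta-s averaged 248 ± 8.47 FPKM in HA-NRG1 type III/+ and 718 ± 60.0 FPKM in WT, and was 2.66-fold and 3.14-fold lower within sets. Alas2 averaged 5.02 ± 2.18 FPKM in HA-NRG1 type III/+ and 15.0 ± 3.67 FPKM in WT, 2.68-fold and 3.55-fold lower. Hba-a1, whose reads may be split with Hba-a2, was 5.27-fold and 35.2-fold lower, while the alpha sum was 4.37-fold and 6.14-fold lower. Bpgm differed least, at 1.18-fold and 1.28-fold lower.

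The limma differences were −3.55 (SE 0.80, adjusted p = 0.293) for Hba-a1, −1.53 (SE 0.59, adjusted p = 0.67) for Beta-s and −1.44 (SE 0.36, adjusted p = 0.34) for Alas2. Those of Hbb-b1, Hbb-b2, Bpgm and Hba-a2 were −1.41, −0.32, −0.28 and −0.10. limma called 0 of the 7, where 0.0638% of all genes were called, and 3 had an unadjusted p under 0.05, as did 6.9% of all genes. With the replicate block 0 of the 7 were called, although 2.11% of all genes were. The 2 libraries of HA-NRG1 type III/+ differ in sex by their Xist and Ddx3y levels. Their globin sums were 337 FPKM in the male library and 288 FPKM in the female one, both below the 897 and 992 FPKM of the female WT libraries. With a term for sex, Hba-a2 turned to 0.48 and Hbb-b2 to 0.15, and with sex and block limma called Hba-a1, which fell by 5.10 (adjusted p = 0.0453).

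The double against Q215X/+ shows the transgene in mutant nerve. All 7 differences were below 0, with a median of −2.47 against −0.0085 over all genes, and 6 of the 7 genes had groups that did not overlap, with the double lower, against 15.2% of all genes. Those 6 were also the ones at least 2-fold lower in both sets, among 35 genes in all (0.279%). Alas2 averaged 7.58 ± 3.37 FPKM in the double and 88.4 ± 16.3 FPKM in Q215X/+, 14.8-fold and 10.03-fold lower within sets. Beta-s averaged 548 ± 426 FPKM in the double and 3730 ± 1784 FPKM in Q215X/+, 9.99-fold and 5.88-fold lower. Hbb-b1 was 10.7-fold and 8.68-fold lower, Hbb-b2 6.19-fold and 20.9-fold, Hba-a1 5.30-fold and 5.27-fold, and Bpgm 2.65-fold and 3.34-fold. For Hba-a1 the folds of the sets were nearly equal, although its level was 1.92-fold higher in set 1 than in set 0 of the double and 1.91-fold higher in set 1 than in set 0 of Q215X/+.

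Whether limma called these genes depended on the replicate block. Without it, 0 of the 7 were called, where 0.0399% of all genes were called, and 6 had an unadjusted p under 0.05, as did 6.58% of all genes. Alas2 was nearest, with a difference of −3.43 (SE 0.36, adjusted p = 0.0595), followed by Bpgm at −1.51 (SE 0.23, adjusted p = 0.153), Hbb-b2 at −2.22 (SE 0.38, adjusted p = 0.186) and Beta-s at −2.93 (SE 0.59, adjusted p = 0.236). With the set as a replicate block, limma called 4 of the 7 as lower, where 0.87% of all genes were called lower and 1.72% in either direction. On the log2 scale Bpgm fell by 1.51 (SE 0.12, adjusted p = 0.0129), Alas2 fell by 3.43 (SE 0.36, adjusted p = 0.0264), Hbb-b2 fell by 2.22 (SE 0.29, adjusted p = 0.03) and Beta-s fell by 2.93 (SE 0.42, adjusted p = 0.0385). Hbb-b1 at −3.24, Hba-a2 at −2.47 and Hba-a1 at −2.38 were not called, with adjusted p = 0.077, 0.455 and 0.234. These calls rested on all 8 libraries: with the block, 0 of the 7 were called when any WT or double library was left out, 2 without set 0 or set 1 of HA-NRG1 type III/+ (Alas2 and Bpgm), 1 without set 0 of Q215X/+ (Bpgm) and 2 without set 1 of Q215X/+ (Hba-a2 and Bpgm). Both Q215X/+ libraries are male and both double libraries female by Xist and Ddx3y. With a term for sex in place of the block, which rests on the HA-NRG1 type III/+ pair alone, Alas2 had −2.67 and Beta-s −2.86, while Hba-a1 turned to 0.16, and limma called 0 of the 7, as it did with both terms.

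**Figure D3:**
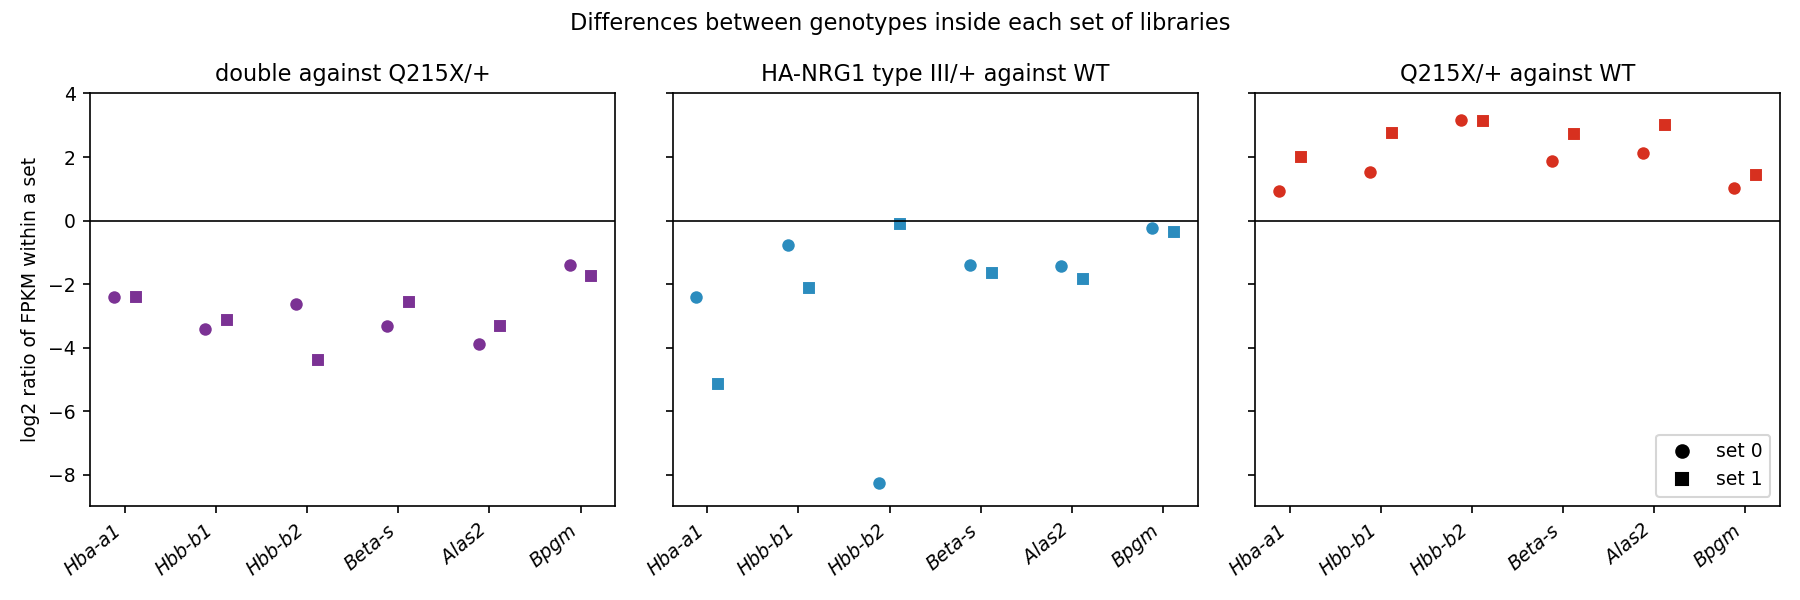
Log2 ratio of FPKM between 2 genotypes inside set 0 (circles) and set 1 (squares) for 6 of the genes, with Hba-a2 left out because 3 of its values lie near 0. All points lie below 0 for the double against Q215X/+ and for HA-NRG1 type III/+ against WT, and above 0 for Q215X/+ against WT, and the lowest point, −8.28, is Hbb-b2 at 0.00161 FPKM.

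Against WT, the double was lower in all 7 limma differences, with a median of −0.92, but its libraries differed. In set 0 the globin sum was 2.84-fold lower than in WT, at 315 FPKM in the double and 897 FPKM in WT. In set 1 it was at 1017 FPKM in the double and 992 FPKM in WT. For 5 of the 7 genes the groups did not overlap, with the double lower, against 16.7% of all genes, and limma called 0, where 0.112% of all genes were called. Alas2 had a difference of −0.93 (SE 0.36, adjusted p = 0.647), and 2 of the 7 genes had an unadjusted p under 0.05, as did 7.29% of all genes. With the replicate block 0 were called, where 2.39% of all genes were.

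Between the double and HA-NRG1 type III/+, groups did not overlap for Hba-a1, higher in the double (8.19% of all genes were higher without overlap), and for Hba-a2, lower in the double (11.1% lower). As the alpha sum, the difference was 1.45-fold higher in set 0 and 4.14-fold higher in set 1 of the double. limma called 0 of the 7 with or without the block, where 0% of all genes were called, and 2 had an unadjusted p under 0.05, as did 1.28% of all genes. The interaction, the transgene effect in Q215X/+ minus that in WT, had 6 of 7 values below 0. It was −1.99 (SE 0.51) for Alas2, −1.90 (SE 0.54) for Hbb-b2 and −1.23 (SE 0.33) for Bpgm. limma called 0 of the 7, where 0.00798% of all genes were called, and these 3 had an unadjusted p under 0.05, as did 1.11% of all genes. The replicate block also called 0, at the same 0.00798%. Both Q215X/+ libraries are male and the WT and double libraries female, so the interaction cannot be told apart from sex. A list of 5 sex genes, Xist and Ddx3y among them, had a median interaction of −4.002. With a term for sex, which rests on the HA-NRG1 type III/+ pair alone, limma called 0 of the 7 for the interaction. In that fit 2 of the 7 had an unadjusted p under 0.05.

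Other red cell genes were described by lists. Slc4a1, the anion exchanger of red cells, was near the lower end of detection and stood at 0.0573 and 0.228 FPKM in the double, 0.174 and 0.0594 in HA-NRG1 type III/+, 1.04 and 1.33 in Q215X/+, and 0.243 and 0.169 in WT. Q215X/+ did not overlap any other genotype for this gene. Of 16 membrane and skeleton genes above 0 in some library, 10 were higher without overlap in Q215X/+ than in WT, against 10.2% of 18870 such genes, and 11 were lower without overlap in the double than in Q215X/+, against 14.2%. Only 4 of the 16 had a mean of at least 1 FPKM, among them Epb4.1, the cytoskeletal protein that ties spectrin to the membrane. Epb4.1 stood at 5.45 and 5.97 FPKM in the double, 4.897 and 4.45 in HA-NRG1 type III/+, 9.08 and 9.001 in Q215X/+, and 6.27 and 6.10 in WT. In the double it fell by 0.58 log2 units against Q215X/+ with the replicate block (adjusted p = 0.0276 in limma), and without the block the adjusted p was 0.143.

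The theta-like globin Hbq1a was highest in Q215X/+ and next in WT, at a low level. It stood at 0.0437 and 0.0595 FPKM in the double, 0.0624 and 0 in HA-NRG1 type III/+, 1.47 and 1.61 in Q215X/+, and 0.137 and 0.205 in WT. Of the embryonic globin genes, Hba-x, Hbb-bh1 and Hbb-bh2 were listed at 0 in all 8 libraries. Another, Hbb-y, was above 0 in some library but had a mean under 1 FPKM. Cygb, a globin of fibroblasts and other non-erythroid cells, stood at 18.6 and 17.8 FPKM in the double, 17.5 and 21.1 in HA-NRG1 type III/+, 16.6 and 12.3 in Q215X/+, and 20.4 and 17.6 in WT. Here Q215X/+ was lowest.

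The enzymes of haem synthesis other than Alas2 differed less than the globins. Of 18 genes of haem synthesis and iron supply, all with a mean of at least 1 FPKM, 8 were above 0 in Q215X/+ against WT, with a median difference of −0.0019, and limma called 0 with or without the block. Of the 18, 2 had an unadjusted p under 0.05, against 2.04% of all genes. In the double against Q215X/+, 13 of the 18 were below 0, with a median of −0.082, where 46.6% of all genes were above 0. Of the 18, 5 were lower without overlap, against 14.2% of 18870 genes. limma called 1 of them with the block, where 1.72% of all genes were called. Without the block it called 0, and 3 had an unadjusted p under 0.05, against 6.58% of all genes. The most abundant, Tmem14c, a porphyrin transporter of mitochondria, stood at 46.6 and 57.5 FPKM in the double, 53.1 and 58.2 in HA-NRG1 type III/+, 46.3 and 64.0 in Q215X/+, and 53.2 and 60.1 in WT. Its levels followed the sets rather than the genotypes. Alad, the enzyme after the Alas step, fell with the replicate block by 0.46 log2 units in the double against Q215X/+ (limma adjusted p = 0.0449) and by 0.43 in HA-NRG1 type III/+ against WT (adjusted p = 0.0488). Without the block the adjusted p were 0.639 and 0.67, and Alad showed no excess in Q215X/+, at 27.4 and 25.6 FPKM, against 30.4 and 24.7 in WT.

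Reticulocyte genes mostly differed in the direction of the globins, but by less. Of 12 tested genes of reticulocyte enzymes and maturation, 10 were above 0 in Q215X/+ against WT, as were 47.5% of all genes, with a median of 0.11. In the double against Q215X/+, 10 were below 0, with a median of −0.17, where 46.6% of all genes were above 0. In each of these comparisons limma called 0 of the 12 without the block. An unadjusted p under 0.05 was found for 4 in each, against 2.04% and 6.58% of all genes. Of 13 listed genes above 0 in some library, 6 were higher and 0 lower without overlap in Q215X/+ than in WT, against 10.2% and 11% of 18870 genes. In the double, 7 were lower and 0 higher without overlap than in Q215X/+, against 14.2% and 15.4%. The most abundant of them, Gpx1, Cat and Prdx2, which remove peroxides in many cell types, had levels from 110 to 165 FPKM, and their Q215X/+ and WT libraries overlapped. Isg20, an exonuclease gene, stood at 3.18 and 6.05 FPKM in the double, 2.74 and 3.29 in HA-NRG1 type III/+, 11.7 and 26.5 in Q215X/+, and 5.18 and 7.15 in WT. It was called in the double against Q215X/+ with the block (fell by 1.79, limma adjusted p = 0.0276), as were Ube2l6, a conjugating enzyme of the ubiquitin family (fell by 1.01, adjusted p = 0.00376), and Mkrn1, a ubiquitin ligase (fell by 0.45, adjusted p = 0.0276). With the block, 1.72% of all genes were called in this comparison. Without the block the adjusted p of these 3 genes were 0.303, 0.393 and 0.425. Isg20 and Ube2l6 are also genes of the interferon response.

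The erythroid factors were at the lower end of detection. Gata1 reached at most 0.138 FPKM and Klf1 at most 0.287 FPKM in any library. Lmo2, a partner of GATA1 that endothelial cells express too, stood at 13.1 and 16.1 FPKM in the double, 12.03 and 17.5 in HA-NRG1 type III/+, 11.0 and 12.9 in Q215X/+, and 11.3 and 14.0 in WT. The double was above Q215X/+ without overlap, and the other pairs of genotypes overlapped. Trim10, a late erythroid gene, stood at 0.0464 and 0.111 FPKM in the double, 0.0523 and 0.0696 in HA-NRG1 type III/+, 0.372 and 0.900 in Q215X/+, and 0.0856 and 0.0762 in WT, with Q215X/+ above all others.

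Bpgm branches off glycolysis, and its neighbours in that pathway differed less. All 7 glycolysis genes were above 0 in Q215X/+ against WT, as were 47.5% of all genes, with a median of 0.22, and limma called 0 with or without the block. Without it, 1 had an unadjusted p under 0.05, against 2.04% of all genes. Only 1 of the 7 (14.3%) was higher without overlap, against 10.2% of 18870 genes. Their sum was 681 FPKM in Q215X/+ and 637 in WT in set 0. In set 1, where the Q215X/+ library held muscle RNA, it was 850 in Q215X/+ and 677 in WT. The part of muscle in this was not tested. Pgk1, the enzyme next to the branch, stood at 70.1 and 67.5 FPKM in the double, 77.4 and 69.0 in HA-NRG1 type III/+, 65.8 and 76.9 in Q215X/+, and 55.8 and 57.7 in WT. Here WT was lowest and the other 3 genotypes overlapped. Genes of haemoglobin and haem clearance showed no common direction, with 5 of 10 tested genes above 0 in Q215X/+ against WT. limma called 0 of them, and 1 had an unadjusted p under 0.05, against 2.04% of all genes. Hmox1, the haem-degrading oxygenase, stood at 72.9 and 55.4 FPKM in the double, 105 and 76.4 in HA-NRG1 type III/+, 61.1 and 56.8 in Q215X/+, and 65.1 and 51.4 in WT. It rose by 0.62 log2 units in HA-NRG1 type III/+ against WT with the block (adjusted p = 0.035, against 0.544 without it), opposite to the globin genes.

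**Figure D4:**
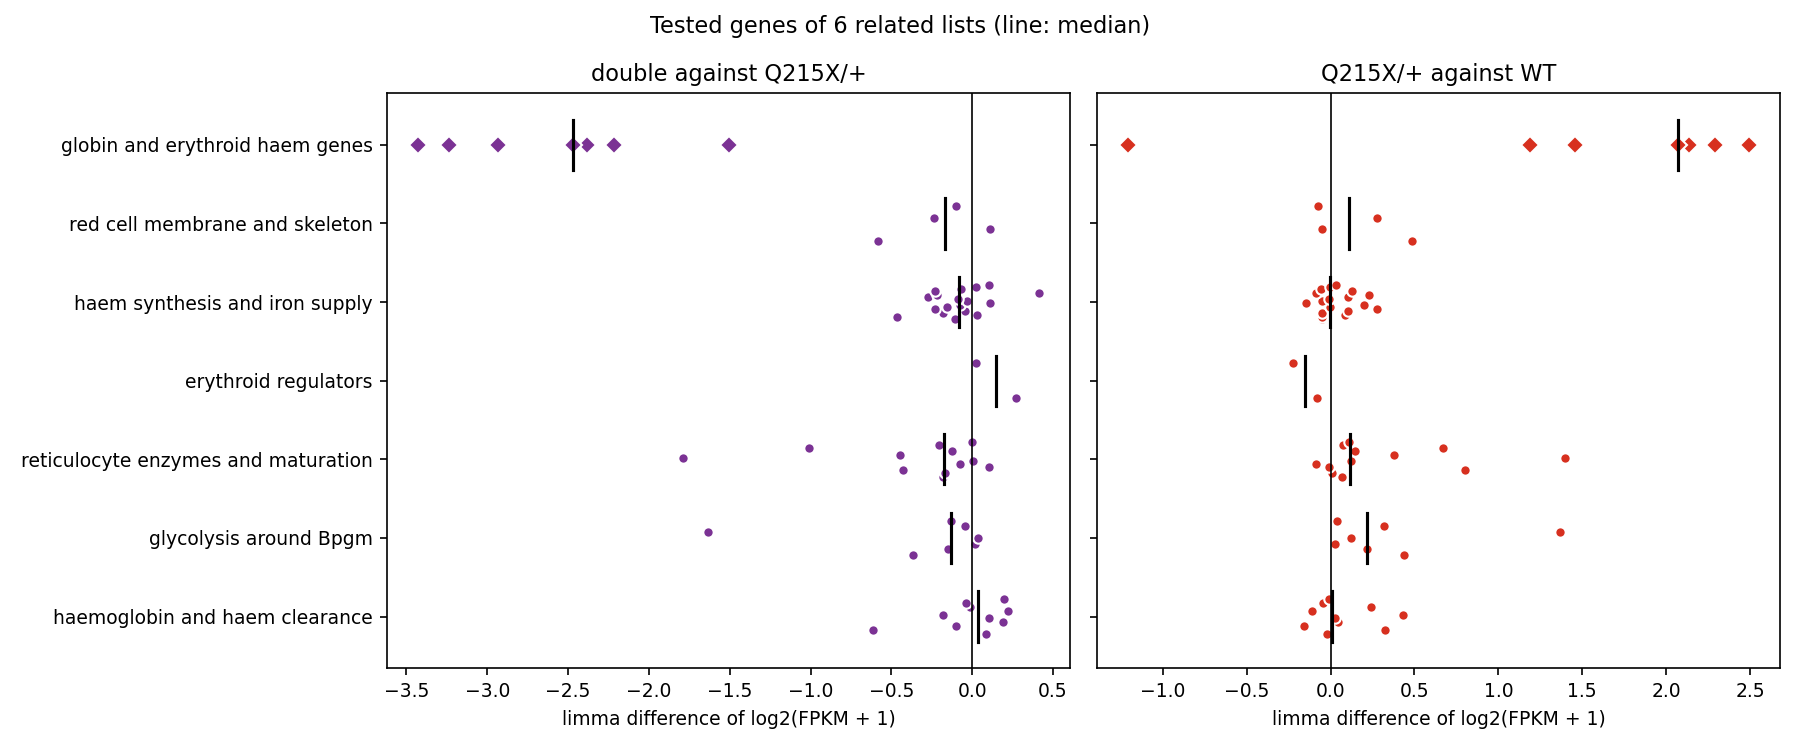
limma differences of log2(FPKM + 1) for the 7 genes (diamonds, top row) and for the tested genes of 6 related lists (dots), with a line at each median, in the double against Q215X/+ (left) and Q215X/+ against WT (right). The medians of the 7 genes are −2.47 and 2.07, while those of the haem synthesis list are −0.082 and −0.0019.

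Markers of other cells that blood or a dissected nerve can hold were set beside the globins. Summed over 12 neutrophil genes, levels were 4.003 and 16.9 FPKM in the double, 4.997 and 10.2 in HA-NRG1 type III/+, 15.1 and 14.1 in Q215X/+, and 4.17 and 6.02 in WT. Q215X/+ was above WT in both sets, as for the globins, but the double of set 1 was highest. S100a9, one of these neutrophil genes, stood at 0.355 and 6.45 FPKM in the double, 1.36 and 2.197 in HA-NRG1 type III/+, 5.53 and 4.45 in Q215X/+, and 0.689 and 1.49 in WT. Of the 12 genes, 7 were higher without overlap in Q215X/+ than in WT, against 10.2% of 18870 genes, and 2 (16.7%) were lower without overlap in the double than in Q215X/+, near the 14.2% of all. Only 4 of these 12 had a mean of at least 1 FPKM. Of 12 platelet genes, 8 were higher without overlap in Q215X/+ than in WT, against the same 10.2%, and 10 were lower without overlap in the double than in Q215X/+, against 14.2%. In the double, 6 were also lower without overlap than in HA-NRG1 type III/+, against 12% of all genes. Only 2 of the 12 platelet genes had a mean of at least 1 FPKM, so most of these counts come from low levels. The platelet sum was carried by Pf4, which macrophages also express, at 46.5 and 71.3 FPKM in the double, 39.8 and 76.5 in HA-NRG1 type III/+, 53.0 and 69.0 in Q215X/+, and 49.0 and 65.9 in WT. Ppbp, a chemokine of platelet granules, stood at 0.211 and 0.709 FPKM in the double, 0.685 and 0.358 in HA-NRG1 type III/+, 1.53 and 1.92 in Q215X/+, and 0.652 and 0.294 in WT.

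Endothelial genes, which line the vessels that hold the blood, did not follow the globins. Their sum over 16 genes was 464 and 495 FPKM in the double, 443 and 540 in HA-NRG1 type III/+, 395 and 487 in Q215X/+, and 468 and 581 in WT. Q215X/+ was lowest in each set, and 8 of the 16 genes were lower without overlap in Q215X/+ than in WT, against 11% of 18870 genes, while 0 were higher. Cldn5, a junction protein of vessel walls, stood at 56.8 and 73.1 FPKM in the double, 53.1 and 83.5 in HA-NRG1 type III/+, 38.8 and 58.5 in Q215X/+, and 51.7 and 79.9 in WT. Sums of 8 lymphocyte genes stayed between 1.94 and 3.74 FPKM in all 8 libraries, and 4 of the 8 genes were higher without overlap in Q215X/+ than in WT, against 10.2% of all. Only 1 of these 8 genes had a mean of at least 1 FPKM. Sums of 6 monocyte genes were 40.6 and 63.1 FPKM in the double, 44.3 and 61.1 in HA-NRG1 type III/+, 43.8 and 61.1 in Q215X/+, and 51.9 and 92.8 in WT, which was highest in each set. Muscle, fat and globin sums were all higher in set 1 than in set 0 of Q215X/+: muscle genes summed to 6.12 and 1216 FPKM, 7 adipocyte genes to 224 and 816 FPKM, and the globins to 2991 and 6171 FPKM. In set 0 the globin sum was 2991 FPKM in Q215X/+ and 897 FPKM in WT, and the muscle sum was 6.12 FPKM in Q215X/+ and 97.0 FPKM in WT. The part of these other cells in the differences was not tested.

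**Figure D5:**
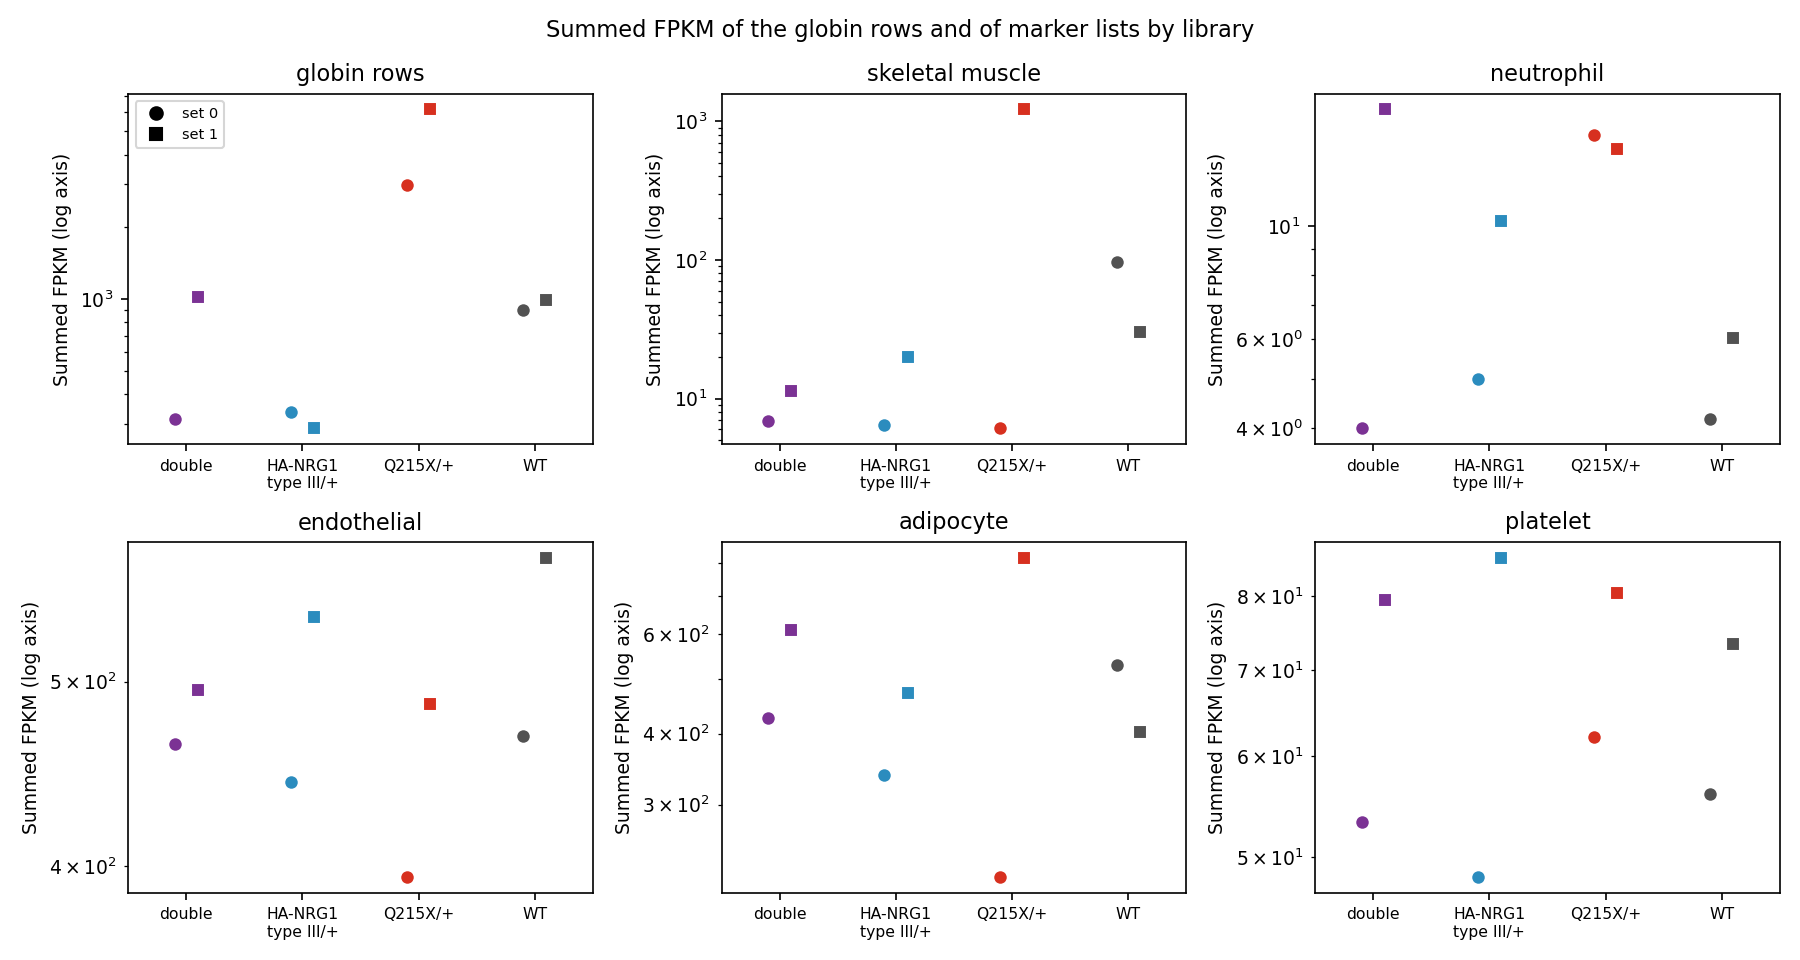
Summed FPKM by library of the 5 globin rows and of marker lists for skeletal muscle, neutrophils, endothelium, adipocytes and platelets, each on its own log axis, with circles for set 0 and squares for set 1. The Q215X/+ libraries are highest for the globins at 2991 and 6171 FPKM, whereas for muscle 1 of them is lowest at 6.12 and the other highest at 1216 FPKM.

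The genes most like the globins across the 8 libraries were named as a description, by Pearson r of log2(FPKM + 1) with the mean of the centred values of the 6 genes other than Bpgm, over 11730 candidates. They were Folh1 (r = 0.979), Gng3 (0.970), Lrrn3 (0.965), Dlg3 (0.957), Epb4.1 (0.955), Tfdp1 (0.950), Spire1 (0.948), Fign (0.947), Kif21a (0.943) and Sytl3 (0.943). Of these 10, Epb4.1 was on a red cell list. Folh1 stood at 3.71 and 4.31 FPKM in the double, 3.66 and 3.72 in HA-NRG1 type III/+, 7.28 and 8.01 in Q215X/+, and 4.96 and 5.95 in WT, a narrower span than any of the globins. Among the 7 genes themselves, the same r was 0.978 for Alas2, 0.949 for Beta-s and Hbb-b1, 0.912 for Bpgm, 0.843 for Hba-a1, 0.833 for Hbb-b2 and 0.154 for Hba-a2. All but Bpgm are part of that mean, and the 8 points share genotypes and sets, so no p is given.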

How the data were processed

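Sciatic nerve libraries of 4 genotypes, 2 each, were analysed from 1 deposited table of FPKM values for 23356 genes, which the authors had made by scaling fragments to gene length and library size. The submitters' processing notes name TopHat2 2.0.9, Cufflinks 2.2.0 and mm10 without roles. Strandedness and filters were not given in the sources used here. Column name stems gave the genotypes, the abbreviated stem being assigned to HA-NRG1 type III/+ as the remaining genotype. FPKM carries no counts, so no counting interval is given.

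limma 3.58.1 in R 4.3.3 was run on log2(FPKM + 1), which understates the change of low genes, for the 12530 genes averaging 1 FPKM or more. The model had 4 group means over 8 libraries (residual df of 4) with an eBayes trend, and Benjamini-Hochberg adjustment over all genes and calls under 0.05. It was tested on simulated data. The level of the mutated gene is not reported here. Alternatives were the set as a replicate block, other pseudocounts, filters and scalings, a term for sex, and each library left out. The set 1 minus set 0 difference correlated across genes at 0.118 to 0.304 in all 6 pairs of genotypes. The replicate block and the folds within sets treated sets as paired on this evidence alone, without a label for it. The main fit had no term for the set.

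The 7 genes and 17 lists were chosen with earlier results of these data known. Besides the 7 genes, list genes called over all genes were named, otherwise up to 4 with the highest mean, and 10 genes by likeness. Slc4a1, Gata1, Klf1, Trim10, Hbq1a, the embryonic globins, Ppbp, the list genes called only with the replicate block and the genes past 2-fold were chosen after their values were seen. Sequences are from RefSeq (GRCm38.p6) and GENCODE (GRCm38).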

Additional observations from a re-analysis of the deposited data

How the results depend on the processing

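Leaving out each library in turn gave 0 to 0 members called by limma in each of the 6 comparisons. The replicate block (the paired fit) called 4 members in the double against Q215X/+, as given above, and it changed no other count of members called. In that fit, leaving out each library, chosen after seeing the data, gave 0 to 2 members called. Without the block, centring each library on its median called 1 in the double against Q215X/+ (Alas2, limma adjusted p = 0.0492). There 14 of 12530 genes were called. A term for sex with the replicate block called 1 in HA-NRG1 type III/+ against WT, Hba-a1 at −5.10 (limma adjusted p = 0.0453). In that comparison this fit called 11 of 12530 genes, with a residual df of 2. The sex term rests on the 2 HA-NRG1 type III/+ libraries alone.

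Of the other values, 312 kept direction and side of the threshold, 6 gained a call and 15 reversed. Part of this was fixed in advance. The main fit called no member, so no call could be lost. Neither the block alone nor leaving out a library outside a comparison could change a direction. With the sex term, the double against Q215X/+ gave 0.16 for Hba-a1, Q215X/+ against WT gave −1.08 for it, and HA-NRG1 type III/+ against WT gave 0.48 for Hba-a2 and 0.15 for Hbb-b2. With sex and block, Q215X/+ against WT gave −1.65 for Hba-a1, 1.46 for Hba-a2 and −0.12 for Hbb-b1, HA-NRG1 type III/+ against WT gave 1.23 for Hba-a2 and 0.0011 for Hbb-b2, and the double against Q215X/+ gave 0.73 for Hba-a1. The cause was not tested. With 1 library left out, Hba-a2 ran from −0.69 to 0.48 in HA-NRG1 type III/+ against WT (0.12 without set 1 of WT), from −4.94 to 0.0016 in the double against Q215X/+ and from −3.68 to 1.27 in Q215X/+ against WT, and Hbb-b2 from −0.78 to 0.15 in HA-NRG1 type III/+ against WT. Groups of 2 libraries, an unknown depth and reads shared between globin copies limit all values.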
